A study of Mus musculus with 16 samples.

Results

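Among 16 brain RNA-seq libraries of wild-type (WT) mouse fetuses at embryonic day 18.5, the 6 hippocampal libraries fell on both sides of a wide gap in transthyretin (Ttr) mRNA, and these 6 libraries are described here. They were chosen by rule: 3 libraries with Ttr of at least 1000 FPKM (fragment counts scaled for transcript length and library size) were set against 3 with Ttr under 1000 FPKM. The high-Ttr libraries were EE replicates 1 and 2 and SH replicate 1, and the low-Ttr libraries were EE replicate 3 and SH replicates 2 and 3, where EE is enriched environment and SH standard habitation. The other 10 libraries were cortex, 5 EE and 5 SH, and served as libraries that the division did not use. The labels name no strain, sex, litter or fetus and do not say whether each replicate is a fetus of its own, so p-values measure only the spread between these libraries, part of which may be technical.

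The choroid plexus is a fold of vascular tissue covered by a ciliated epithelium, attached to the edge of the hippocampal primordium in each lateral ventricle. Its epithelium secretes cerebrospinal fluid with a set of ion transporters and a water channel, and it exports carrier proteins. Transthyretin, a carrier of thyroid hormone and of retinol-binding protein, is its classic product. Folr1 is the folate receptor that moves folate into the fluid, and Kcne2 is a potassium channel subunit of the same cells. Next to it lies the cortical hem, a midline source of Wnt and Bmp signals for the hippocampus.

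In the files, 15247 genes were listed in all 6 hippocampal libraries, and 13344 of them had a mean of at least 1 FPKM and are the genes counted below. Whole reads recovered from the steps of the values gave 16967837 to 21957593 reads per hippocampal library, so depth differed by little between the sides. The summed FPKM of the 16 libraries was 339726 to 396658 except in cortex SH replicate 3, at 511438.

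The upstream sequence of 3 members of the list of choroid plexus genes is shown: a water channel, a channel subunit and a transcription factor. The table of RefSeq gene starts on GRCm38.p6 matched 28 of the 35 counted choroid plexus genes and 10088 of the 13344 counted genes. Ttr, counted in the 35, and Folr1 were among the 7 without a start, so neither was searched. For each start, 9 motifs were searched on both strands in the 250 bases upstream; capitals mark every match.
Aqp1 (chr6:55336049-55336298, plus strand, GTTGCC and CCCTCCC): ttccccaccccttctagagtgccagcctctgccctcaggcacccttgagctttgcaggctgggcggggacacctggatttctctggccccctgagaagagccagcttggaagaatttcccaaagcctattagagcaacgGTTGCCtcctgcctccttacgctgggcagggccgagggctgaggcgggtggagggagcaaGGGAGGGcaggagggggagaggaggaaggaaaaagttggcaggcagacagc
Kcne2 (chr16:92292139-92292388, plus strand, 1 of 2 starts in the table, GTTGCC): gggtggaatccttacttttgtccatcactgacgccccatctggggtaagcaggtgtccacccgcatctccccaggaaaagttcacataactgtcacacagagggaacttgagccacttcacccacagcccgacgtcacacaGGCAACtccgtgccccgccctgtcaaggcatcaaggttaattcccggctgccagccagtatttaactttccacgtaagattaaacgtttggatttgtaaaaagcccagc
Otx2 (chr14:48665110-48665359, minus strand, 1 of 4 starts in the table, TAATCC and TAATTA): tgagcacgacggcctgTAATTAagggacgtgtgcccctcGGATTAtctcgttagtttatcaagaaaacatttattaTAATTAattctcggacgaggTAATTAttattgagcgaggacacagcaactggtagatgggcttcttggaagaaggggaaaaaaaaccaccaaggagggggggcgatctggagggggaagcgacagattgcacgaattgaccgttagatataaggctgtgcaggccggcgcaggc

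Across all 9 motifs the choroid plexus genes held them at shares given here beside those of all counted genes with a start. GTTGCC, a core shared by sites of RFX factors, was upstream of 5 of the 28 genes (17.9%) and of 12.9% of all, and the longer match of GTTGCC followed directly by ATGG of 0 and of 0.634%. TAATCC, the core bound by Otx factors, was upstream of 2 (7.14%) and of 6.02% of all, and TAATCCC, which contains it, of 0 and of 1.92%. TAATTA, a homeodomain core, was upstream of 2 (7.14%) and of 2.9% of all. The forkhead-type cores TGTTTAC and TGTTTAT were upstream of 0 and of 2 genes (7.14%), against 2.6% and 2.65% of all. CAGCTG was upstream of 5 (17.9%) and of 14.2% of all, and CCCTCCC of 12 (42.9%) and of 30% of all. These are matches of letters in short windows, and no binding was measured.

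Ttr, the gene that made the division, stood at 4989, 10300 and 16656 FPKM in EE 1, EE 2 and SH 1. It stood at 33.6, 37.9 and 143.9 FPKM in EE 3, SH 2 and SH 3. The lowest high value was 34.7 times the highest low value, and no library lay near 1000 FPKM. Ttr alone made up 1.26%, 2.80% and 4.42% of the summed FPKM of EE 1, EE 2 and SH 1.

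The low-Ttr libraries held fewer, not no, choroid plexus transcripts. Ttr rested on 704, 895 and 3495 recovered reads in EE 3, SH 2 and SH 3, Folr1 on 70, 47 and 101, and Kcne2 on 8, 12 and 24. None of the 3 markers was at 0 in a low-Ttr library, so these libraries were low in choroid plexus markers rather than without them. In bulk RNA, fewer cells of a type and less RNA per cell cannot be told apart. Since the division was made on these values, every difference between high-Ttr and low-Ttr libraries below is a description with no test.

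**Figure D1:**
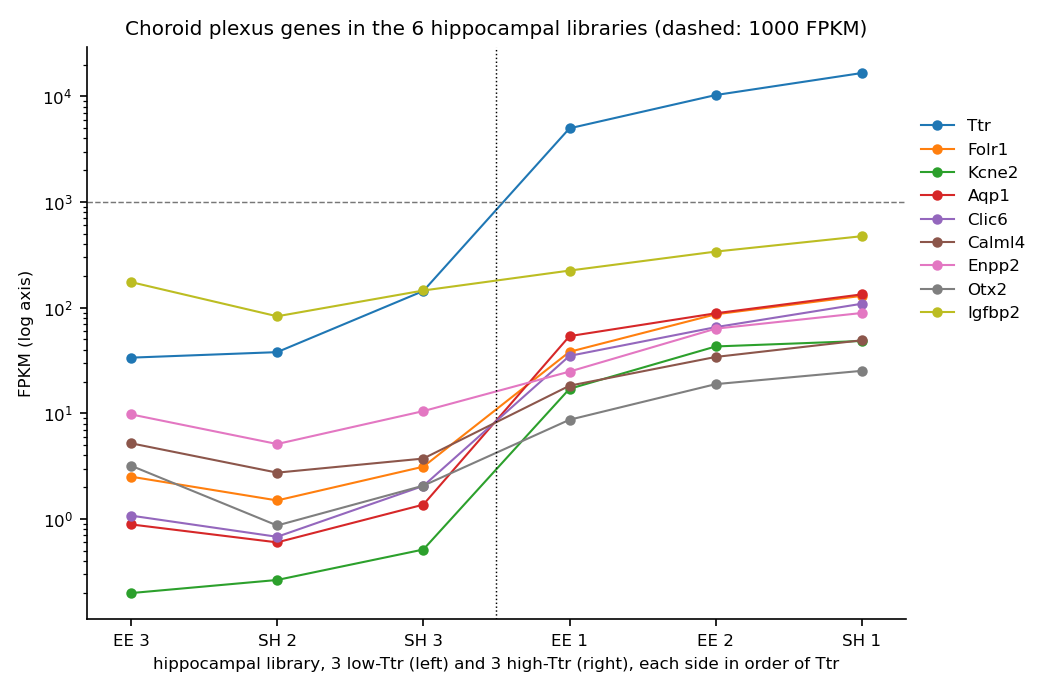
FPKM (log axis) of 9 choroid plexus genes in each hippocampal library, 1 point per library, joined by gene, with the low-Ttr libraries on the left and the high-Ttr libraries on the right, each side in order of Ttr. Ttr crosses the dashed line at 1000 FPKM, and the other 8 genes are each higher in all 3 high-Ttr libraries than in any low-Ttr library.

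Folr1 was at 38.2, 86.6 and 129 FPKM in EE 1, EE 2 and SH 1 and at 2.51, 1.497 and 3.12 in EE 3, SH 2 and SH 3. The difference of the side means was 4.53 on the log2(FPKM + 1) scale, which understates the change of low genes and is the scale of every difference below. Kcne2 was at 17.1, 43.0 and 48.4 FPKM in the same high-Ttr libraries and at 0.199, 0.264 and 0.514 in the low ones, a difference of 4.69. For both genes the sides were far apart, and EE 1 was the lowest of the high side.

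Of the 36 choroid plexus genes other than Ttr in the list, 34 were listed and all 34 passed the filter, 13 of them with a low-Ttr mean under 1 FPKM. For 32 of the 34 all 3 high-Ttr libraries lay above all 3 low-Ttr ones, where 10.5% of counted genes did so, and 31 also differed by at least 1 (called separated here), where 1.48% of counted genes did. The list's median difference was 2.67, against 0.013 for all counted genes. Summed over the 34 genes, the level was 211.6 to 330.1 FPKM in low-Ttr and 768.7 to 1959 FPKM in high-Ttr libraries. Igfbp2, a binding protein of insulin-like growth factors, and Slc29a4, a monoamine transporter, made up 61.7 to 65.7% of the low-side sum. Ttr chose the sides and the list was put together with these data known, so the shares are read as a description of what came with Ttr.

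Genes of fluid secretion were among those with the widest gaps. Aqp1, the water channel of the apical membrane, was at 53.8, 88.5 and 134 FPKM in EE 1, EE 2 and SH 1 and at 0.888, 0.600 and 1.37 in EE 3, SH 2 and SH 3, a difference of 5.50. Clic6, a chloride channel protein, was at 34.98, 65.4 and 109 FPKM against 1.08, 0.678 and 2.05, a difference of 4.86. Neither gene had overlapping sides, and both had their highest low-side value in SH 3, the low-Ttr library with the most Ttr.

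Slc4a5, a sodium bicarbonate cotransporter, was at 7.32, 13.9 and 19.0 FPKM in the high-Ttr and at 0.0850, 0.142 and 0.138 in the low-Ttr libraries. Car12, a carbonic anhydrase at the cell surface, was at 15.3, 22.8 and 36.9 FPKM against 1.09, 1.42 and 1.41. The potassium channel Kcnj13 was at 5.87, 12.5 and 17.4 FPKM against 0.687, 0.0169 and 0.263. These 3 genes were near 1 FPKM or below in each low-Ttr library. Over the whole list of ion and water transport genes, 15 of 18 counted members had high above low (10.5% of all counted genes did). Of the 18, 12 were separated (1.48% of all were), and the median difference was 2.58. That list shares members with the choroid plexus list.

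Among barrier genes, the claudins differed in the size of the gap. Cldn1 was at 14.1, 24.5 and 66.4 FPKM in EE 1, EE 2 and SH 1 and at 0.810, 0.575 and 0.977 in EE 3, SH 2 and SH 3, a difference of 4.06. Cldn2, a claudin that forms cation-permeable junctions, was at 9.67, 16.7 and 27.4 FPKM against 0.428, 0.474 and 0.491, a difference of 3.58. Cldn3 was at 6.75, 8.74 and 9.85 FPKM against 3.46, 5.33 and 6.49, a difference of 0.65. The sides did not overlap for these 3 claudins, which the choroid plexus list holds. The tight junction list holds 3 more, Cldn5, Cldn11 and Cldn12, and their sides overlapped. Cldn11 was at 1.61, 16.1 and 10.7 FPKM against 15.4, 0.747 and 4.99, a difference of 0.53 with EE 1 low and EE 3 high. Of the 12 counted tight junction genes 5 had high above low (10.5% of all did) and 3 were separated (1.48%), with a median difference of 0.40. The epithelial keratin Krt18 was at 17.7, 31.5 and 43.5 FPKM against 0.583, 0.259 and 0.431.

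Secreted and carrier proteins ranged widely. Sostdc1, a secreted antagonist of Bmp and Wnt signals, was at 19.2, 53.6 and 70.4 FPKM in the high-Ttr and at 2.13, 1.39 and 2.84 in the low-Ttr libraries. Kl, the ageing-related coreceptor klotho, was at 1.46, 3.33 and 5.17 FPKM against 0.157, 0.0556 and 0.126. Igfbp2 was at 225, 340 and 475 FPKM against 175, 82.9 and 145, a difference of 1.36 on a base that was high in every library. Of 18 counted carrier genes, Ttr among them, 10 had high above low (10.5% of all did) and 6 were separated (1.48%). Their median difference was 0.85.

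Regulators and receptors of the epithelium were also on the high side. Otx2, the homeobox factor that specifies choroid plexus, was at 8.69, 18.9 and 25.2 FPKM in EE 1, EE 2 and SH 1 and at 3.19, 0.867 and 2.07 in EE 3, SH 2 and SH 3. The serotonin receptor Htr2c was at 9.01, 15.9 and 26.3 FPKM against 1.34, 2.45 and 2.04. Ace, angiotensin converting enzyme, was at 19.5, 39.5 and 56.8 FPKM against 5.21, 1.68 and 3.29, and Trpm3, a cation channel, at 10.02, 23.7 and 33.3 against 1.98, 1.19 and 1.87. EE 3 was the highest low-Ttr library for Otx2 and Ace and the lowest for Htr2c. The 2 members with overlapping sides were Slc29a4, at 51.5, 52.5 and 44.98 against 42.3, 50.4 and 39.8 FPKM, and Slc13a4, a sulfate transporter, at 6.57, 15.3 and 25.7 against 7.07, 0.302 and 1.82.

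Within the high side the choroid plexus genes kept nearly the order of Ttr. From EE 1 to SH 1 Ttr was 3.34 times higher, and the 34 other genes had a median ratio of 2.91, from 0.874 for Slc29a4 to 5.60 for Col8a1, a collagen, against 1.05 for all counted genes. The order EE 1, EE 2, SH 1 held in 33 of the 34, the exception being Slc29a4. Folr1 was 0.766%, 0.841% and 0.777% of the Ttr value in EE 1, EE 2 and SH 1. The amount of choroid plexus transcript therefore differed among the high-Ttr libraries too, and EE 1 had the least.

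**Figure D2:**
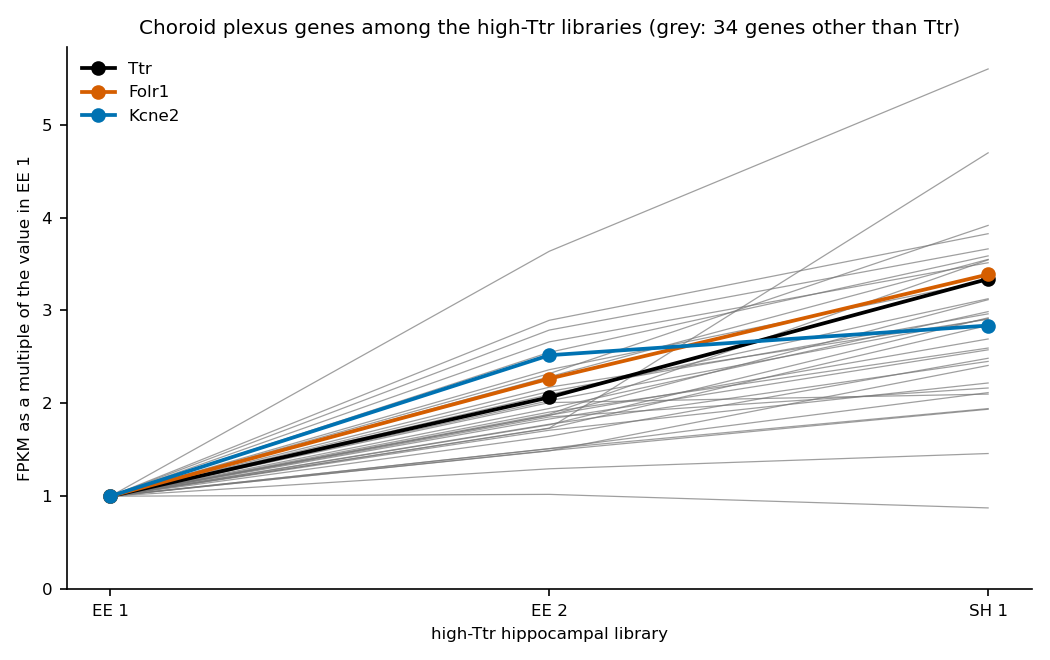
FPKM of each choroid plexus gene as a multiple of its value in EE 1, in the 3 high-Ttr hippocampal libraries, with 1 grey line for each of the 34 genes other than Ttr. Ttr ends at 3.34 and most grey lines rise with it, while the lowest ends at 0.874.

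Within the low side no single order held. SH 3 had 4.28 times the Ttr of EE 3, yet of the 34 genes 14 were highest in SH 3, 13 in EE 3 and 7 in SH 2. SH 2 was the lowest of the low side for 22 of them, EE 3 for 11 and SH 3 for 1. In 12 of the 34 genes all low-Ttr values were under 1 FPKM.

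Over all counted genes 198 were separated with high above low (1.48%) and 3 with high below low (0.0225%). Without the threshold on size, 1399 genes had all high-Ttr values above all low-Ttr values (10.5%) and 910 had them below (6.82%). Nearest the threshold, Dnah6 and Cdr2 lay just inside at 1.005 and 1.008, and Kank1 and Nt5dc2 just outside at 0.998 and 0.996. Of the 198 genes, 48 were in one of the lists used and 150 in none, and 81 had a low-Ttr mean under 1 FPKM. The order EE 1, EE 2, SH 1 held in 188 of the 198 (94.9%), and in 34.9% of all counted genes. Without EE 1, the library with the least Ttr on the high side, 364 genes were separated. Leaving out a library also makes non-overlap of the sides easier to reach.

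Other features differed among the libraries as well. Spearman's rho of the high minus low difference with the longest transcript length was -0.186 over the genes with a known length. The deviation of each library from the mean of the 6 had a rho of -0.483 in EE 1, 0.097 in EE 2 and 0.033 in SH 1. The rho was -0.141 in EE 3, 0.232 in SH 2 and 0.158 in SH 3. EE 1 had the lowest rho, and EE 2 and SH 1 lay within the range of the low-Ttr libraries. These deviations share a mean, so the rho of a library depends on the others. Xist, the transcript of the inactive X chromosome, was at 81.1 and 70.8 FPKM in EE 3 and SH 2 and at 0.0467 to 0.107 in the other 4 hippocampal libraries. The Y-linked Eif2s3y was at 0.0162 and 0.0287 FPKM in EE 3 and SH 2 and at 14.1 to 18.2 in the others. So 2 of the 3 low-Ttr libraries carried Xist and none of the high-Ttr ones did. Each housing group held 1 library with Xist and 2 with Y-linked transcripts, so the 3 libraries of a group were not repeats of 1 fetus. Among the 4 libraries without Xist, SH 3 alone was left on the low side, so a gene was separated more easily than with 3 libraries a side. There 212 genes were separated with high above low, and 31 of the 34 choroid plexus genes were among them. The parts of transcript length and fetal sex in the result were not tested.

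Outside the lists, the 15 named genes with the largest high-side excess included several secreted or matrix proteins. Defb11, a beta-defensin, was at 17.1, 47.2 and 77.4 FPKM in EE 1, EE 2 and SH 1 and at 0.172, 0 and 0.148 in EE 3, SH 2 and SH 3. Prr32, a proline-rich protein, was at 13.7, 33.0 and 44.7 FPKM against 0.105, 0.0933 and 0.0906. Wfikkn2, a secreted binder of growth and differentiation factors, was at 29.2, 50.9 and 72.1 FPKM against 2.14, 0.535 and 1.87. All 3 kept the order of Ttr within the high side.

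Col9a3, a chain of type IX collagen, was at 55.5, 79.0 and 101 FPKM in the high-Ttr and at 10.1, 6.81 and 9.05 in the low-Ttr libraries. Klk4, a kallikrein peptidase, was at 2.56, 7.62 and 11.9 FPKM and was listed at 0 in each low-Ttr library. Slc16a8, a lactate transporter, was at 2.43, 4.48 and 6.19 FPKM against 0.0971, 0 and 0.0279. The remaining 9 were Cdh3, Wfdc2, Slc2a12, Col8a2, Gpc3, Tinagl1, Emb, Sulf1 and St6galnac2, with differences of 2.24 to 3.04. They include a cadherin (Cdh3), a glucose transporter (Slc2a12) and the heparan sulfate proteins Gpc3 and Sulf1.

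Outside the choroid plexus list, the genes whose 6 values tracked Ttr most closely included some with small gaps. By Pearson's r of log2(FPKM + 1) over the 6 libraries, the closest 10 outside that list included Slc12a4, Hmgn5, Yif1a, Lpcat2, Tmem98, Ost4, Cep63 and Kiz, with r of 0.984 to 0.998. These r describe 6 points that fall into 2 groups of 3. Slc12a4, a potassium chloride cotransporter, was at 14.2, 14.996 and 15.8 FPKM in EE 1, EE 2 and SH 1 and at 8.29, 8.09 and 9.18 in EE 3, SH 2 and SH 3. Lpcat2, an enzyme of phospholipid remodelling, was at 5.62, 6.59 and 7.75 FPKM against 1.73, 1.52 and 1.95. The differences of these 8 genes ran from 0.20 in Cep63 to 1.48 in Lpcat2. Within the choroid plexus list, genes with wide gaps tracked Ttr as closely, with an r of 0.994 for Clic6 and of 0.992 for Aqp1.

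The 3 separated genes lower on the high-Ttr side were Xist, with a difference of -4.13, and Mef2c and Fam19a2, with gaps close to the threshold. Mef2c, a neuronal transcription factor, was at 11.2, 14.6 and 10.8 FPKM in EE 1, EE 2 and SH 1 and at 37.9, 18.1 and 26.8 in EE 3, SH 2 and SH 3, a difference of -1.07. Fam19a2, a secreted neuronal protein, was at 1.99, 3.09 and 1.88 FPKM against 10.3, 4.77 and 3.82, a difference of -1.05. In Mef2c and Fam19a2, EE 3 was the highest library.

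The other 14 named lower genes outside the lists did not overlap between the sides but differed by less than 1, from -0.97 to -0.67. They included Ntsr1, a neurotensin receptor of deep cortical neurons, at 2.54, 3.67 and 2.05 FPKM against 8.81, 4.55 and 5.92. Nefm, a neurofilament chain, was at 12.4, 15.9 and 13.7 FPKM against 49.4, 17.8 and 21.3. Wnt7b, a Wnt ligand, was at 23.8, 19.2 and 12.6 FPKM against 34.0, 27.0 and 26.9. Asns, asparagine synthetase, peaked in SH 2 instead, at 57.4 FPKM. The rest were Sla, Epha3, Fst, Scube1, Mpped1, Caln1, Dok6, Kcnh3, Acvr2a and Mir6390. Of the 910 genes with high below low, 256 were highest in EE 3, 408 in SH 2 and 246 in SH 3.

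**Figure D3:**
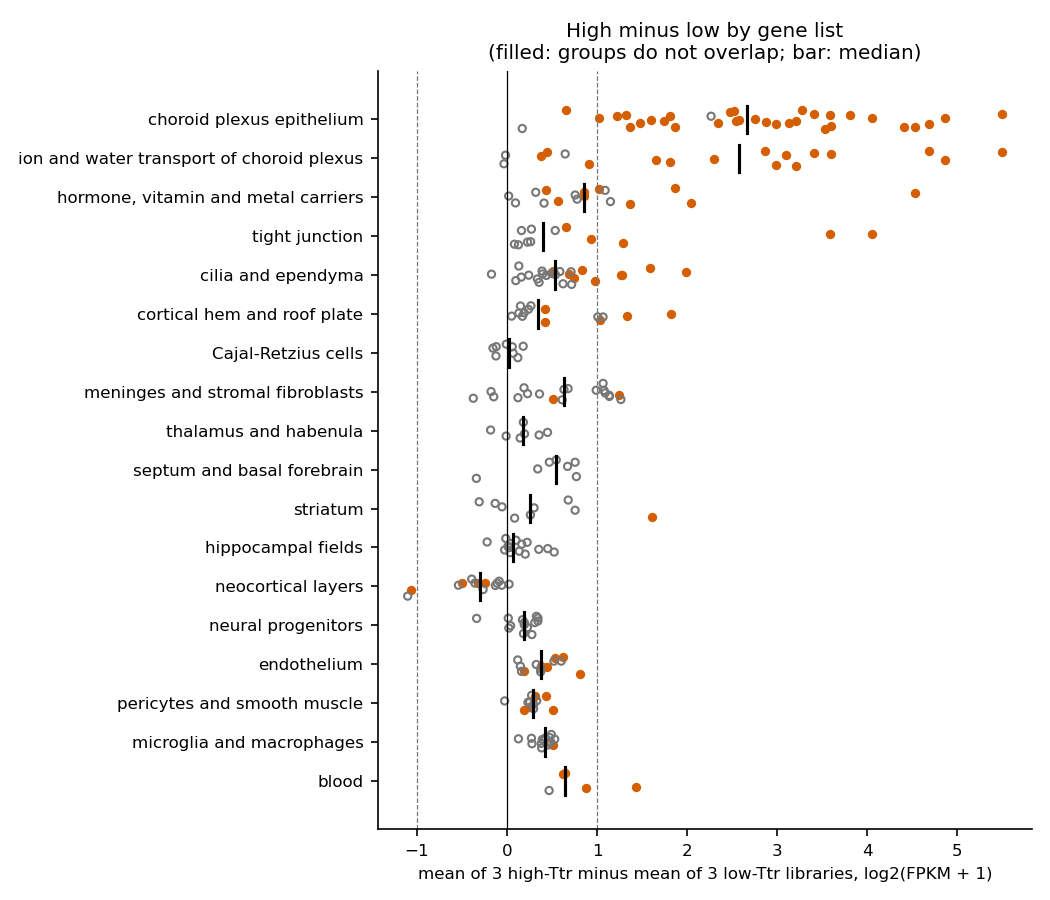
High minus low difference in log2(FPKM + 1) for each counted gene of 18 lists, 1 point per gene without Ttr, filled where the 3 high-Ttr and 3 low-Ttr libraries do not overlap, with a black bar at each list's median and dashed lines at -1 and 1. The choroid plexus list has its median at 2.67 and the list of hippocampal fields at 0.07.

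Lists of neighbouring tissue had smaller medians. In the list of cortical hem and roof plate genes, 5 of 14 counted genes had high above low (10.5% of all did). Of the 14, 3 were separated (1.48% of all were) and the median was 0.34. Msx1, a homeobox target of Bmp signals, was at 10.7, 25.3 and 32.1 FPKM in the high-Ttr and at 5.59, 3.70 and 6.38 in the low-Ttr libraries. Lmx1a, a roof plate factor, was at 4.48, 7.34 and 10.6 FPKM against 2.98, 2.43 and 3.56. Bmp4 was at 1.86, 5.14 and 6.001 FPKM against 1.53, 0.271 and 1.38. These 3 were the separated members, and in each EE 1 was the high-side library closest to the low side.

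In the list of cilia and ependyma genes, 9 of 25 had high above low (10.5% of all did), 4 were separated (1.48%) and the median was 0.54. The separated genes were Cfap126, Gmnc, Mlf1 and Lrriq1. Gmnc, which starts the multiciliated cell programme, was at 1.08, 3.43 and 4.25 FPKM against 0.295, 0.185 and 0.169. Cfap126, a basal body protein, was at 16.7, 19.6 and 33.2 FPKM against 6.08, 3.62 and 5.16. None of the 8 counted genes of Cajal-Retzius cells, the reelin-secreting neurons that the hem gives rise to, was non-overlapping in either direction, and their median was 0.02.

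Genes of the meninges and stromal fibroblasts were mostly on the high side, but with overlap. Of 19 counted genes 16 had a positive difference and the median was 0.63. Of the 19, 2 had high above low, near the 10.5% of all counted genes, and 1 was separated (1.48% of all were). The separated gene was Bgn, a matrix proteoglycan, at 21.5, 32.1 and 46.8 FPKM in EE 1, EE 2 and SH 1 and at 15.4, 9.07 and 15.5 in EE 3, SH 2 and SH 3, a difference of 1.24. The summed level of the list was 110 to 1332 FPKM in low-Ttr and 210 to 651 FPKM in high-Ttr libraries, and Ptgds, a prostaglandin synthase, was at 1062 FPKM in EE 3. Igf2 was at 39.2, 125 and 163 FPKM against 79.0, 18.3 and 55.1. Col1a1 was at 5.49, 22.1 and 25.1 FPKM against 5.84, 3.06 and 12.3. EE 1 lay within the low-side range for both. In the list of septum and basal forebrain 6 of 7 genes had a positive difference, with a median of 0.55, and none was non-overlapping. Zic1 was at 13.2, 36.4 and 61.1 FPKM against 43.2, 9.87 and 16.01, high in EE 3 as well.

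Vessel and blood genes were slightly higher on the high side. Of 14 endothelial genes 6 had high above low with a median of 0.38, and of 12 genes of pericytes and smooth muscle 5 did with a median of 0.28, and none was separated in either list. Of 5 counted blood genes 4 had high above low, with a median of 0.64. Hba-a2, an alpha globin, was the separated one, at 68.5, 102 and 238 FPKM against 61.0, 40.7 and 32.5. Of 15 genes of microglia and macrophages 1 had high above low, with a median of 0.43. Over all counted genes 10.5% had high above low and 1.48% were separated that way, the shares to set beside these lists. The part of vessels and blood in the other differences was not tested.

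Genes of the hippocampus itself were near level. None of 16 counted genes of the hippocampal fields was non-overlapping, and the median was 0.07. Over all counted genes 10.5% had high above low and 6.82% high below low. Neurod1, a factor of granule neurons, was at 54.3, 55.6 and 44.4 FPKM in EE 1, EE 2 and SH 1 and at 23.5, 60.8 and 44.2 in EE 3, SH 2 and SH 3. Neural progenitor genes had no non-overlapping member among 14 and a median of 0.19. Of 14 genes of neocortical layers 4 had high below low (6.82% of counted genes did), the only separated one being Mef2c, and the median was -0.30. For striatum 1 of 9 genes was separated with high above low (1.48% of counted genes were). It was Ppp1r1b, a regulator of dopamine signalling, at 11.7, 14.7 and 24.7 FPKM against 6.04, 3.18 and 5.16. For thalamus and habenula none of 7 was non-overlapping, with a median of 0.18.

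Whether the same genes moved with Ttr in libraries that the division did not use was tested in the 10 cortex libraries. Cortex Ttr was at 77.5, 244, 8.30, 689 and 28.9 FPKM in EE replicates 1 to 5 and at 117, 11.1, 281, 32.5 and 35.8 in SH replicates 1 to 5. The cortex values thus spanned the low hippocampal range and stayed under 1000 FPKM. In a limma fit of log2(FPKM + 1) on log2(Ttr + 1) with the set of replicates as a term, 0 of 12538 genes passed a Benjamini-Hochberg adjusted p of 0.05 (0% called), and the smallest adjusted p was 0.929. Without adjustment 174 genes had a positive and 102 a negative slope at p under 0.05. A limma-voom fit of the recovered reads called 0 as well.

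Of the choroid plexus genes 17 could be tested in cortex, and 15 had a positive slope, 6 of them at an unadjusted p under 0.05. Their median slope was 0.039 per unit of log2(Ttr + 1), against -0.006 for all genes. Folr1 and Kcne2 were not among them, since the tables of cortex replicates 4 and 5 do not list them. Of the 198 separated genes 75 were not listed in cortex replicates 4 and 5, against 5.07% of counted genes, and 25 were in no cortex table. The median slope was 0.018 without cortex EE 4, the library with the most Ttr, 0.069 without cortex EE 3 and 0.061 without cortex SH 3. Cortex EE 4 was also the one cortex library with Eif2s3y, Ddx3y, Kdm5d and Uty at 0. A term for that, added after seeing the data, sets only this library apart. It equals leaving cortex EE 4 out and gave 0.018 again, so it is no separate check.

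The named positive slopes were led by 1500015O10Rik at 0.21 (SE 0.040, unadjusted p 2.85e-04, adjusted p 0.929). This gene was at 4.02 to 13.3 FPKM in cortex, and its highest value was in SH 3. Clic6 had a slope of 0.21 (SE 0.048) and was at 0.601 to 4.39 FPKM in cortex, highest in EE 4. Aqp1 had a slope of 0.14 (SE 0.038) and was at 2.61 to 6.94 FPKM in cortex, above the 0.600 to 1.37 FPKM of the low-Ttr hippocampal libraries. Sostdc1 had 0.18 (SE 0.041). From outside the list, Col8a2 had a slope of 0.12 and Wfikkn2 of 0.16, both genes that were higher in the high-Ttr hippocampal libraries. The remaining named positive slopes were of Xlr3b, Klf2, Vegfc, Rpl21, Trp53i13 and Chchd2, and the named negative ones of Scd1, Kdm5d, Htr1b, Uty, Gm15446 and Gm39668, none of which passed the adjusted test. Kdm5d and Uty are Y-linked.

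The hippocampal libraries were next compared with cortex replicates 1 to 3, in a limma fit with housing as a term. Of 13158 genes, 3233 were higher (24.6%) and 1428 lower (10.9%) in hippocampus. The split depends on scaling: with median-of-ratios scaling it was 2158 and 2232, and with quantile normalization 2155 and 2066. Median-of-ratios scaling moved the median of all genes from 0.09 to -0.03.

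Of 32 choroid plexus genes tested, 11 were higher in hippocampus (24.6% of genes were) and 0 lower, although 31 had a positive estimate and the median was 1.28. Ttr had an estimate of 3.52 with an adjusted p of 0.121, and Kcne2 of 2.13 with an adjusted p of 0.099. With housing and replicate number together as a block, the adjusted p of Ttr was 0.026. That block pairs tissues of equal replicate number, which the labels do not say came from the same fetus. Folr1 was higher by 2.94 (SE 0.95, adjusted p 0.030), but its adjusted p was 0.055 to 0.073 when any one of cortex EE 1, EE 3 or SH 2 or hippocampus EE 1, EE 2 or SH 1 was left out, and 0.076 with limma-voom on the recovered reads. Without hippocampus EE 3 the adjusted p was 0.043 for Ttr and 0.032 for Kcne2, and without hippocampus SH 2 it was 0.049 for Kcne2. Otx2 was higher by 2.20 (adjusted p 0.008) and Calml4, a calmodulin-like protein of epithelial brush borders, by 2.69 (adjusted p 0.004). The count was 18 without hippocampus EE 3 and 7 without hippocampus SH 1.

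These counts moved with the libraries used. With the 3 low-Ttr libraries alone against cortex, 22 choroid plexus genes were tested, and 5 were higher (10.4% of all genes were), 4 lower (5.99%), with a median of -0.12. With the 3 high-Ttr libraries alone 31 of 32 were higher (22.6%) and 0 lower (10.3%), with a median of 2.56. Over the 22 genes tested with either side, the median with the high-Ttr libraries was 2.30. Both subsets were chosen on Ttr, so these counts are descriptions. Aqp1 had an estimate of -1.57 with the low-Ttr and of 4.07 with the high-Ttr libraries. Otx2, with estimates of 0.96 and 3.52, and Calml4, with 1.33 and 4.13, were positive with either.

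**Figure D4:**
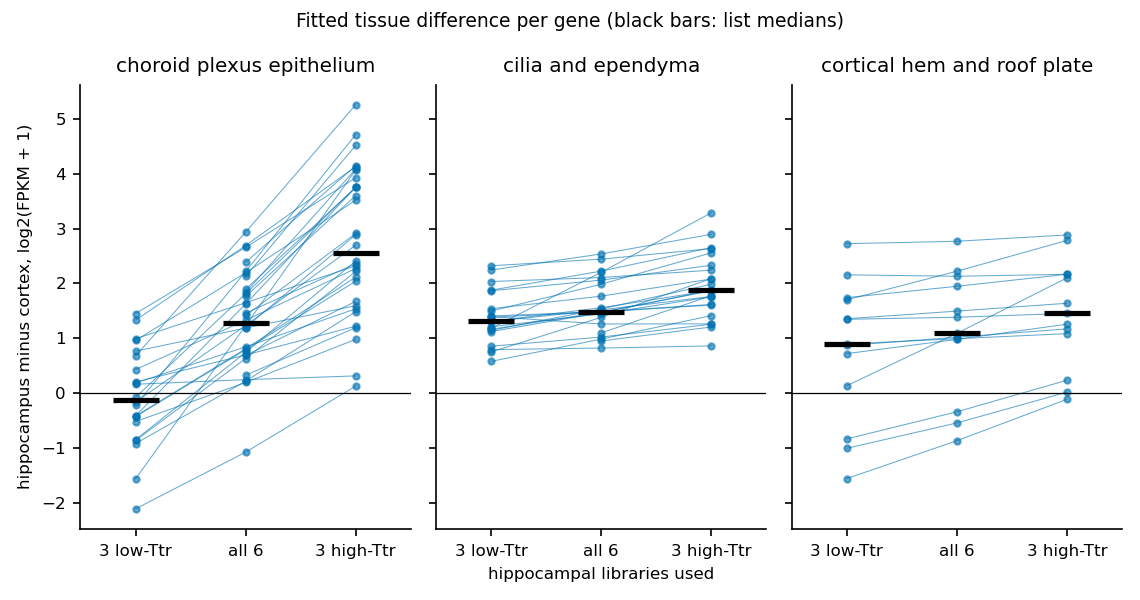
Fitted hippocampus minus cortex difference in log2(FPKM + 1) for each gene of 3 lists, 1 line per gene without Ttr, with the 3 low-Ttr libraries, all 6 or the 3 high-Ttr libraries, and black bars at the list medians. The choroid plexus median goes from -0.12 (22 genes) through 1.28 to 2.56 (32 genes each), while most cilia and hem genes stay above 0 with either side.

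Cilia genes and most hem genes were also higher in hippocampus. All 23 tested cilia and ependyma genes were higher (24.6% of all genes were), with a median of 1.49. Foxj1, the factor that drives motile cilia, was higher by 2.44 (adjusted p 1.85e-06), with 2.32 from the low-Ttr and 2.64 from the high-Ttr libraries. Cfap126 was higher by 2.20, with 1.18 and 3.29. Mcidas, a regulator of multiciliated cells, was higher by 1.48, with 1.38 and 1.61. Of 13 cortical hem and roof plate genes 9 were higher and 0 lower, and 10 had a positive estimate. With the low-Ttr libraries alone 8 were higher (10.4% of all genes were) and 1 lower (5.99%). Bmp4 was at 0.271 to 1.53 FPKM in the low-Ttr hippocampal libraries and at 2.17 to 6.95 in the 10 cortex libraries. Wnt8b, a hem ligand, was higher by 2.77, with 2.73 from the low-Ttr and 2.89 from the high-Ttr libraries. Lmx1a was higher by 2.22, with 1.70 and 2.79. Msx1 had an estimate of 1.09 (adjusted p 0.075), with 0.13 and 2.10. Over the genes tested with either side, the median went from 1.31 with the low-Ttr to 1.88 with the high-Ttr libraries for 21 cilia genes and from 0.89 to 1.45 for 13 hem genes. Whether lists differed in this shift was not tested. All 8 Cajal-Retzius genes were higher, as were 14 of 16 genes of the hippocampal fields, such as Zbtb20 and Prox1. Of 22 meningeal and stromal genes 11 were lower, and of 14 striatal genes 12, where 10.9% of all genes were lower.

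Last, housing was compared in the 6 hippocampal libraries, where each housing group held libraries of both sides: 2 high and 1 low for EE, 1 high and 2 low for SH. In the limma fit 0 of 13344 genes passed (0% called), with 94 higher and 409 lower in EE at an unadjusted p under 0.05. A voom fit of the recovered reads called 0 too. Ttr had an EE minus SH estimate of 1.41 (SE 2.77), Folr1 of 1.06 (SE 1.70), Kcne2 of 1.11 (SE 1.74) and Aqp1 of 1.39 (SE 2.01), each with an adjusted p of 0.9996. None of these differences exceeded the spread between libraries.

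Of the 34 choroid plexus genes 32 had a positive housing estimate, and their median was 0.60 against -0.01 for all genes. With log2(Ttr + 1) added to the fit 19 of 34 were positive and the median was 0.03. With the side of the division added 3 were positive and the median was -0.42. Leaving out 1 library at a time gave medians from -0.10 without SH 2 to 1.92 without SH 1, and -0.06 without EE 2, 0.03 without SH 3, 0.39 without EE 1 and 1.39 without EE 3. The direction of the housing estimate for these genes thus changed with the libraries and terms used.

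**Figure D5:**
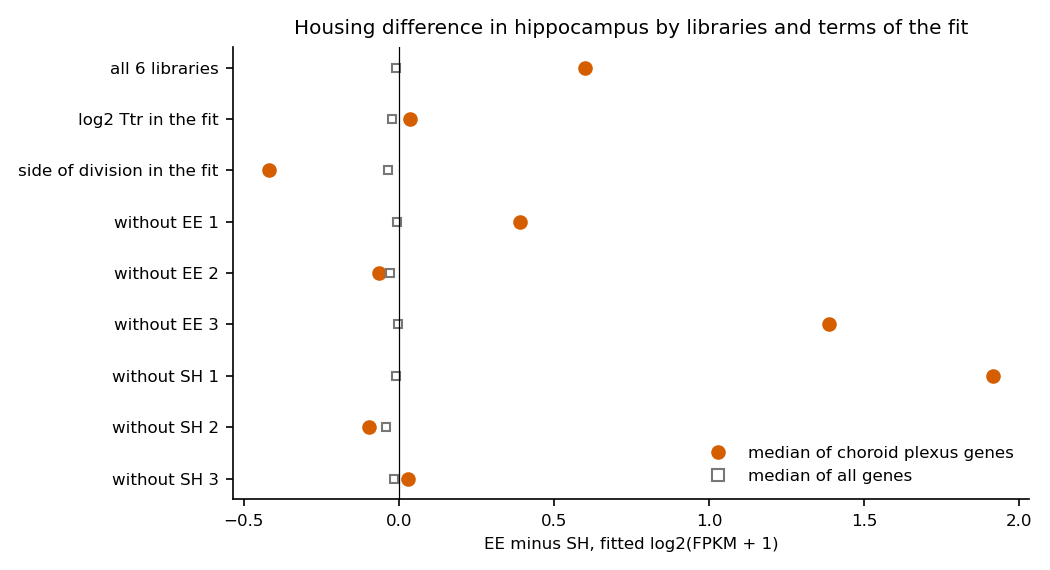
Median EE minus SH estimate in log2(FPKM + 1) in hippocampus for the 34 choroid plexus genes (filled circles) and for all genes (open squares), with all 6 libraries, with a term for Ttr or the side, and without each library. The choroid plexus median runs from -0.42 to 1.92, while the median of all genes stays near 0.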

How the data were processed

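Each library came as 1 table of gene symbols with FPKM values made by the authors; the unit is given per the file headers. Per the labels' protocols, RNA was extracted with Trizol and libraries were made with an NEBNext Ultra kit. Build mm10 is named in the submitters' processing notes, as are the tools StringTie 1.3.4d, HISAT2 2.0.4 and cutadapt 1.9, with DESeq2 and edgeR, all without their roles. The annotation and the filter on listed genes are not given in the sources used here, and a gene not listed was treated as missing. Whole reads were recovered for 100% of genes (tolerance 0.003), up to a common factor for each of 3 blocks of tables, so depth in fragments is not known. Tests were two-sided, by limma (version 3.58.1 under R 4.3.3) with a mean-variance trend, from log2(FPKM + 1) values of genes listed in all libraries compared with a mean of at least 1 FPKM, with Benjamini-Hochberg adjustment over all genes tested. The fits were tested on simulated data. High-Ttr against low-Ttr values were not tested. The members and the 19 gene lists were chosen with earlier results of these data known. Named genes were the markers, up to 6 per list (16 for choroid plexus) by absolute difference, 15 higher and 15 lower non-overlapping genes outside the lists, the 10 most like Ttr, the 12 positive and 6 negative cortex slopes of smallest p, and fetal sex genes; some genes that the rule names are not reported here. The rule asked for lower genes past a difference of 1, and where too few existed smaller ones were taken. Genes in the text outside this rule (Slc29a4, Slc13a4, Htr2c, Otx2, Calml4, Foxj1, Mcidas, Wnt8b, Zbtb20, Prox1, Dnah6, Cdr2, Kank1, Nt5dc2, Ptgds, Cldn5, Cldn12) were chosen after their values were seen. Alternatives were another pseudocount, scaling, filter or limma setting, each library left out, the replicate number as a block, other terms, and limma-voom on recovered reads. For hippocampus against cortex the block was housing and replicate number together.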

Additional observations from a re-analysis of the deposited data

Results flagged for a closer look

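In the 2 cortex groups of 5 libraries, the choroid plexus and fetal sex genes were checked for a library far from the rest, which chance finds in about 1 of 20 groups. Of 54 groups 4 had one. Xist was at 0.993 FPKM in cortex EE 4, against 0.00849 to 0.0258 in the other EE libraries. Kl was at 0.168 FPKM in cortex SH 3, against 0.461 to 0.527 in the others. Wdr86 was at 1.19 FPKM in cortex EE 4, against at least 0.701 in the others. Htr2c was at 2.10 FPKM in cortex EE 5, against 3.76 to 4.23 in the others. Hippocampal groups, with 3 libraries each, could not be checked in this way.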

How the results depend on the processing

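The count of separated genes with high above low (198) was 309 with a pseudocount of 0.1, 97 with a mean of at least 5 FPKM, 465 with a difference of 0.58, and 136 to 364 with 1 library left out. The count with high below low (3) was 5 with a pseudocount of 0.1, 7 with quantile normalization and 24 with a difference of 0.58. It was 10 in the 4 libraries without Xist, where SH 3 alone was the low side, and 2 to 12 with 1 library left out. The choroid plexus median (2.67) was 3.42 with a pseudocount of 0.1, and 30 to 32 of the list were separated with 1 library left out. Single genes were rerun for 56 named genes: those of the choroid plexus list, those outside the lists and those most like Ttr. None of the 56 changed direction. Their sides did not overlap, so leaving out a library or changing the pseudocount or filter could not reverse them. The other named genes, some with overlapping sides such as Neurod1 and Cldn11, were not rerun, so their directions were not checked.

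In cortex 0 genes were called under each alternative. The choroid plexus median slope was 0.19 per unit of log2(Folr1 + 1) in replicates 1 to 3, a different scale. Without cortex SH 3 and EE 4 together, chosen after seeing the data, Kdm5d had a slope of 0.018 and Uty of 0.0049. With a term for the Y-linked Eif2s3y, also added later, the choroid plexus median slope was 0.018. That term sets only cortex EE 4 apart and equals leaving it out.

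For hippocampus against cortex (4661 called), a mean of at least 5 FPKM gave 2744 called, 1758 higher, 7 choroid plexus and 9 of 9 cilia genes higher. The low-Ttr libraries alone gave 2131 called, 1354 higher and 777 lower, 5 choroid plexus genes higher, a choroid plexus median of -0.12 and a Ttr estimate of -0.25; the high-Ttr libraries alone gave 31 genes and a median of 2.56. Quantile normalization gave 2155 higher and median-of-ratios scaling 2232 lower. Leaving out 1 library gave 7 to 18 choroid plexus genes higher.

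For housing 0 genes were called under each alternative. With the side added, the choroid plexus median was -0.42, Ttr -1.17, Folr1 -0.51, Kcne2 -0.51 and Aqp1 -0.49. With 1 library left out the median ran from -0.10 to 1.92, the Ttr estimate from -0.36 (without SH 2) to 4.01 and that of Folr1 from -0.016 (without SH 2) to 2.84. The cause of these shifts was not tested.

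Libraries of equal replicate number did not deviate together in every pair: r was -0.556 to 0.439 for housing, -0.165 to 0.285 for tissue and -0.061 to 0.335 in cortex. With the block of housing and replicate number, 3023 genes were higher and 1334 lower in hippocampus, and Ttr had an adjusted p of 0.026 there. With the replicate number as a block, 0 were called for housing and in cortex. With 3 libraries a group, small differences are beyond this design, and values under 1 FPKM rest on few reads.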
